A study of Homo sapiens with 45 samples.

Results

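The data described here come from 1 array out of 45, the array of A375 cells transfected with siRNA against CHEK1, and concern the response of p53 target genes in it. A375 is an established human melanoma line, and RNA was profiled on Affymetrix U133 plus 2.0 arrays. The CHEK1 siRNA array was chosen by its label and is set against the other 22 arrays of batch KD2, each with an siRNA against a different gene (ABL1, AKT1, CCNA2, CCNB1, CCND3, CDC16, CDC37, CDK4, CDKN2C, CEBPD, CEBPZ, FOXM1, GABARAP, HDAC2, HDAC3, MAP2K1, NMI, PIK3CB, RBL2, RELA, SP100 or STAT6). The 3 arrays of control siRNA and the 3 arrays of untreated cells, whose batch is not given, serve as a further comparison. All siRNA cultures were harvested 48 h after transfection, at 100 nM siRNA by the labels, while the study's methods give a lower concentration. Each siRNA was a single culture with 1 array, so the CHEK1 siRNA array has no replicate and the 22 arrays it is set against are different perturbations. Values are log2 intensities, and a difference is the log2 value in the CHEK1 siRNA array minus the median of the other 22 KD2 arrays, so that 1 is a 2-fold difference.

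CHEK1 encodes CHK1, the kinase that ATR activates when replication forks stall, and CHK1 restrains CDC25 phosphatases, origin firing and entry into mitosis. Cells that lose CHK1 accumulate replication stress and DNA breaks. p53 is a transcription factor that DNA damage kinases stabilise, and it induces genes of cell cycle arrest, apoptosis, repair and its own feedback control. Repression of cell cycle genes by p53 runs through p21, the product of CDKN1A, and the DREAM complex, which binds promoter elements known as CHR.

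The CHEK1 transcript itself stood at 7.68 in the CHEK1 siRNA array, against 8.41, 8.96 and 9.22 as the lowest, median and highest of the other 22 KD2 arrays. It stood at 8.45, 8.73 and 8.83 in the control siRNA arrays and at 8.65, 9.06 and 8.78 in the untreated arrays. No other array of the 45 was as low. The difference from the KD2 median was -1.28, or 0.41 times its level, and as the lowest of 23 arrays it had an exact one-sided rank p of 0.0435, the smallest that 23 arrays allow. The paper selected siRNAs that lowered their target mRNA at least 2-fold, and it reports the knockdown from these arrays. A low CHEK1 level was therefore a condition of inclusion, and the rank p is no test of the knockdown. Of 4 probe sets for CHEK1, 3 lay below the range of the other arrays, with differences of -1.54, -1.31 and -1.28. The fourth was at 5.37 in the CHEK1 siRNA array, against a KD2 median of 5.44, far below the noise limit of 8.59 (1.5 times the intensity of the bacterial spike-in BioB).

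A gene was called when it lay at least 2-fold from the KD2 median and outside the range of the other 22 arrays, and 11 of 19775 genes (0.0556%) met this rule. The only genes called lower were CHEK1 and MYBL1, a MYB family transcription factor at 5.98 in the CHEK1 siRNA array, against a range of 6.67 to 7.87 in the other KD2 arrays. The 9 genes called higher (0.0455% of all genes) were GDF15, CDKN1A, ACTA2, PURPL, FAS, SUGCT, H2AC6, BAX and TP53INP1. Of these 9, GDF15, CDKN1A, FAS, BAX and TP53INP1 are on the list of p53 targets used here, and PURPL is a long non-coding RNA known as a p53 target but not on it. MYBL1, PURPL, SUGCT, H2AC6 and TP53INP1 were below the noise limit in the CHEK1 siRNA array as well as in the KD2 median. H2AC6 belongs to the near-identical H2A histone genes, so its probe set may read other copies, and it stood at 7.94 in the CHEK1 siRNA array with 7.93 in the array of MAP2K1 siRNA.

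A second test, limma across all named probe sets, takes the CHEK1 siRNA array to vary as the other 22 KD2 arrays do among themselves. It called 10 of 41097 probe sets (0.0243%) at an adjusted p under 0.05, with 1054 at an unadjusted p under 0.05. The 3 probe sets lower all belonged to CHEK1, whose low level was a condition of inclusion. The 7 higher (0.017% of all probe sets) belonged to 6 genes, CDKN1A, MDM2, ACTA2, PURPL, TP53I3 and RPS27L, of which CDKN1A, MDM2, TP53I3 and RPS27L are on the p53 list. GDF15, FAS and BAX, called by size and range, did not pass limma, with adjusted p of 0.26, 0.17 and 1.0.

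**Figure D1:**
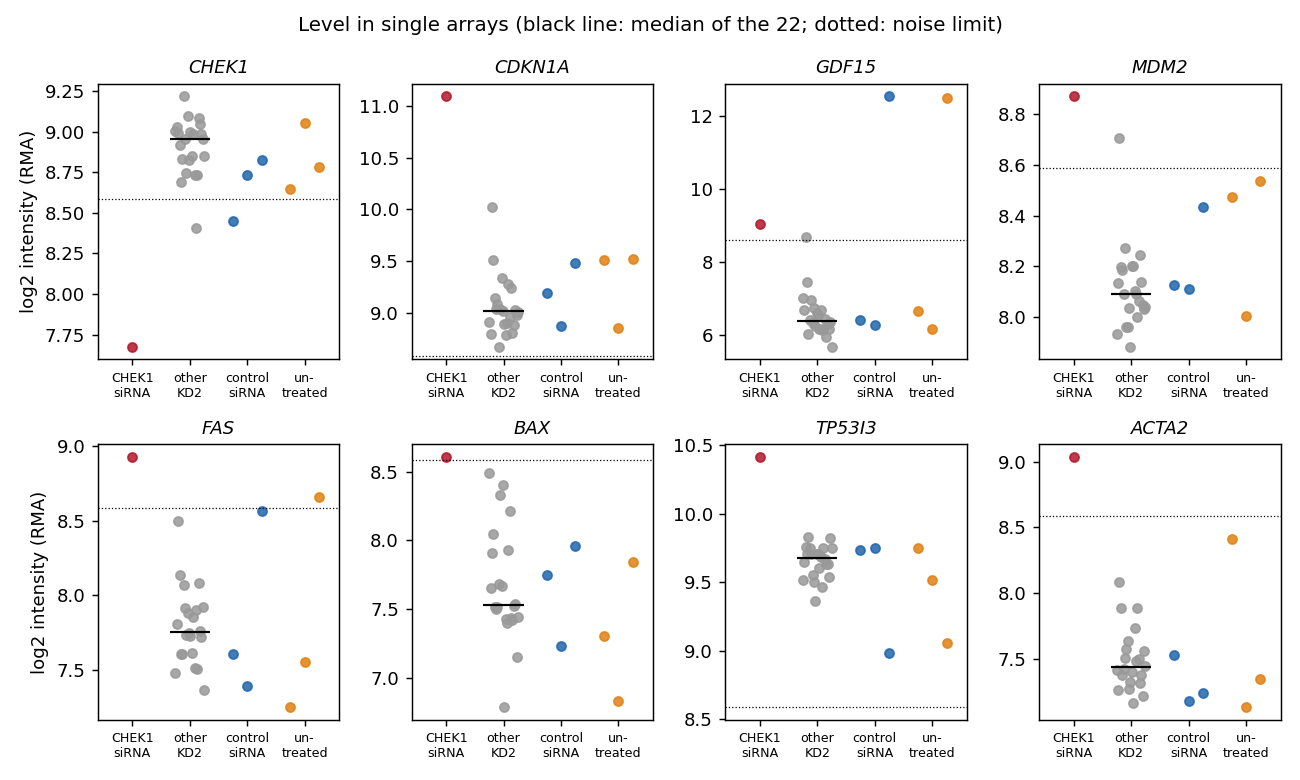
Level of CHEK1 and of 7 genes higher after its knockdown, in log2 intensity on the vertical axis, in the CHEK1 siRNA array, the other 22 KD2 arrays, the 3 control siRNA and the 3 untreated arrays, with 1 point per array, a black line at the median of the 22 and a dotted line at the noise limit of 8.59. The CHEK1 siRNA array is the lowest KD2 array for CHEK1 and the highest for the other genes, and GDF15 exceeds 12 in 1 control siRNA and 1 untreated array.

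The promoters of some of these genes hold a match to the p53 response element in a window from 250 bases before to 50 after the start of transcription (RefSeq, GRCh38.p14). A match was a pair of p53 half-sites, up to 2 bases apart, with both central cores (a C, 2 bases that are A or T, a G) intact and at most 2 other mismatches, a palindrome that reads the same on either strand. Such a match was found for 129 of 27305 genes with a promoter (0.472%) and for FAS, DDB2 and AEN among the 43 measured p53 targets with one. PURPL and ACTA2, which are not on the list, also held one. The sites of the members that were higher are shown with the match in capitals. The array reads neither these letters nor p53 protein or its binding, and the part of p53 was not tested.
FAS, 10:88991297-88991340, plus strand: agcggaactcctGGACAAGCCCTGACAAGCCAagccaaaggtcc
ACTA2, 10:88991304-88991333, minus strand: tggctTGGCTTGTCAGGGCTTGTCCaggag
DDB2, 11:47214975-47215004, plus strand: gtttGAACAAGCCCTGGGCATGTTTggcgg
AEN, 15:88621294-88621337, plus strand: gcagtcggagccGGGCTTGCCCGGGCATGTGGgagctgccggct
PURPL, 5:27472153-27472196, plus strand: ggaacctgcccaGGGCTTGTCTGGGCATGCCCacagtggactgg
The FAS and ACTA2 matches are the same bases read on opposite strands, because a start site of ACTA2 lies beside that of FAS and points the other way. The match begins 122 bases before the FAS start and has 2 mismatches. The DDB2 and PURPL matches have 0 mismatches, the DDB2 one beginning 6 bases after the start and the PURPL one 127 bases before it. A match is a description of the letters and not a measured site, and the other genes' sites may lie outside this window.

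Across the whole list, 53 of 57 p53 targets were measured, and 49 of the 53 (92.5%) were higher in the CHEK1 siRNA array than the KD2 median, against 48.6% of all genes. Above the range of the other 22 arrays lay 27 of the 53 (50.9%), against 2.37% of all genes, and none lay below it. Their median difference was 0.32, against 0.00 over all genes, and 29 of the 53 were above noise. By the 2-fold and range rule 5 were called higher, and 16 were at 1.5-fold. The members numbered 126 probe sets in all, of which 104 were higher than the KD2 median and 47 (37.3%) lay above the range, against 2.33% of all named probe sets. The list comes from knowledge of p53 biology, but it was drawn up with part of these results known, so its share is a description. The 4 lower members were TNFRSF10D (-0.21), PIDD1 (-0.09), TNFRSF10C (-0.08) and EPHA2 (-0.05), all within the range of the other arrays. Of these, only EPHA2 was above noise. BTG2, BBC3, FDXR and GLS2 were not analysed here.

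**Figure D2:**
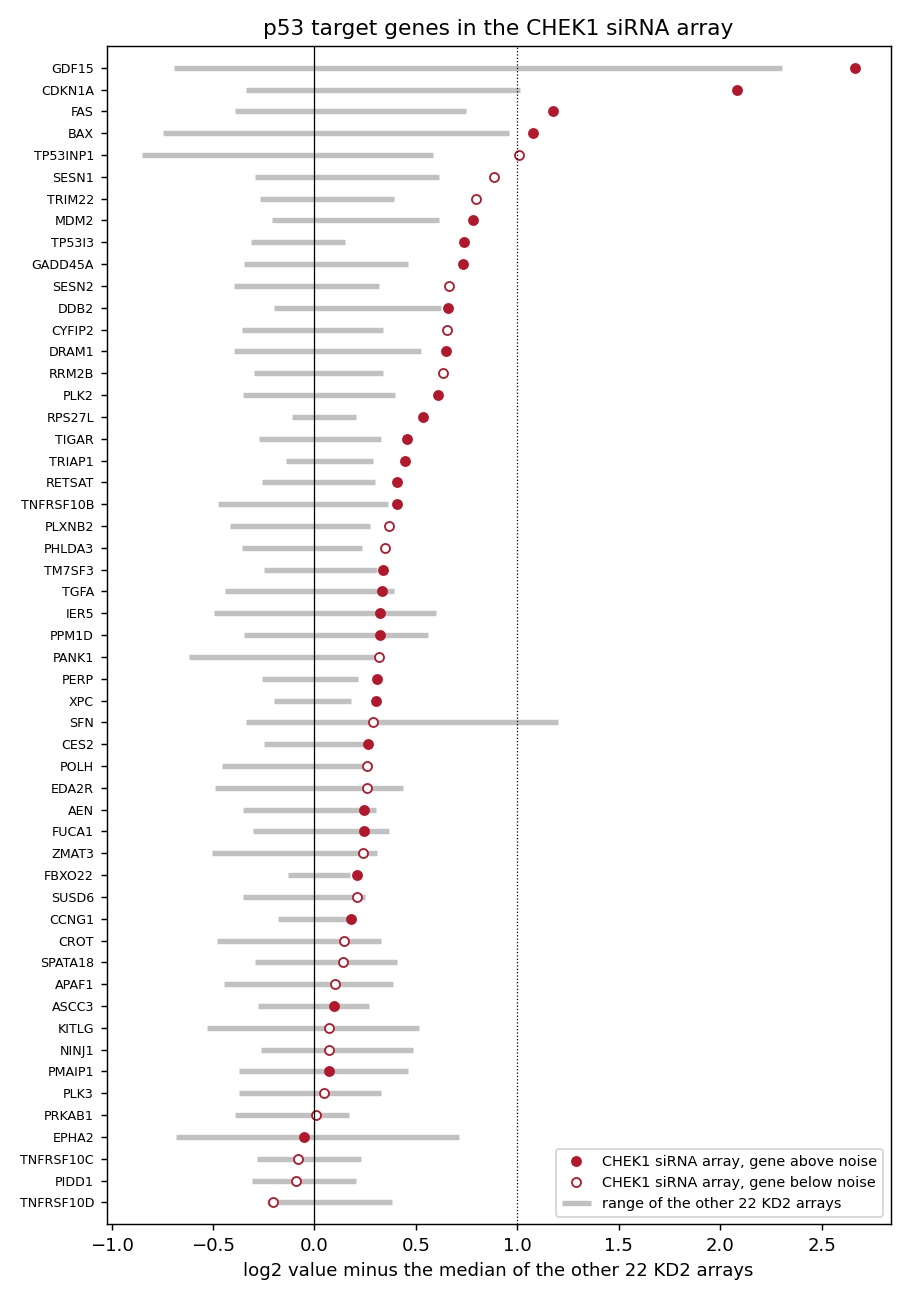
Difference of each of the 53 measured p53 targets in the CHEK1 siRNA array from the median of the other 22 KD2 arrays, on the log2 scale, with filled points for genes above noise, open points for genes below it and grey bars for the range of the other 22 arrays. The points of 27 genes lie to the right of their bar, 5 of them at or past the dotted line at a 2-fold difference.

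Among the targets that arrest the cell cycle, all 7 measured were higher and 3 lay above the range. CDKN1A, which encodes the CDK inhibitor p21, stood at 11.10 in the CHEK1 siRNA array, against 8.68, 9.01 and 10.03 as the lowest, median and highest of the other KD2 arrays. Its levels were 9.20, 8.87 and 9.48 in the control siRNA arrays and 9.51, 8.85 and 9.52 in the untreated arrays. All of these lay more than 2-fold below the CHEK1 siRNA array, and the highest was that of CCNA2 siRNA. The difference was 2.08, or 4.23-fold, and limma gave 2.03 with an SE of 0.27 and an adjusted p of 0.00047.

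GADD45A, a stress gene that slows the G2/M transition and aids repair, was at 10.40 in the CHEK1 siRNA array, against a range of 9.32 to 10.13 in the other KD2 arrays, a difference of 0.73. In the control siRNA arrays it stood at 9.57, 9.53 and 11.92, so the CHEK1 siRNA array lay above 2 of the 3 and below the other. PLK2, a kinase of centriole duplication that p53 induces, was higher by 0.61 and above the range. CCNG1, SFN, PLK3 and PRKAB1 stayed within the range, at 0.18, 0.29, 0.05 and 0.01. Of these, only CCNG1 was above noise.

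The targets that feed back on p53 had the highest median of the 7 roles, 0.49, with all 6 higher and 4 above the range. MDM2, the ubiquitin ligase that degrades p53, was read by 10 probe sets. Its brightest stood at 8.87 in the CHEK1 siRNA array, against 7.88, 8.09 and 8.71 as the lowest, median and highest of the other KD2 arrays, a difference of 0.78. This was higher than all 3 control siRNA arrays (8.13, 8.11 and 8.43) and all 3 untreated arrays (8.47, 8.01 and 8.54). Dimmer probe sets differed more, by 1.66 and 1.70 with limma adjusted p of 0.00018 and 0.0059 and both below noise in the CHEK1 siRNA array. In all, 9 of the 10 were higher and 6 lay above the range.

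RPS27L, a ribosomal protein paralogue that binds MDM2, stood at 12.90 in the CHEK1 siRNA array, against 12.26, 12.37 and 12.57 as the lowest, median and highest of the other KD2 arrays. The difference of 0.53 missed the threshold in limma (adjusted p = 0.060), while a dimmer probe set at 0.92 passed it (adjusted p = 0.035). The brighter probe set passed limma with robust, trended variances (adjusted p = 0.0027) and when dim probe sets were left out (adjusted p = 0.0029). The dimmer one's call was not made when arrays were centred on their medians or when the FOXM1 and PIK3CB siRNA arrays were left out. The control siRNA arrays lay at 12.91, 11.98 and 12.22, so 1 control array was as high as the CHEK1 siRNA array. TRIAP1, a small p53-induced protein that protects from apoptosis, was above the range at 0.44. TP53INP1, a nuclear cofactor of p53, was at 1.01 and below noise, and its other probe sets were at 0.04 and -0.07. PPM1D, the phosphatase WIP1 that switches p53 off, and ZMAT3, an RNA-binding protein, were second highest of the 23 arrays, at 0.32 and 0.24. ZMAT3 was below noise.

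Death receptors were read by 5 genes, of which FAS and TNFRSF10B lay above the range and both TNFRSF10 decoys were lower. The decoys were within the range and below noise, and TNFRSF10C was at 0.25 with its most variable probe set. FAS, the receptor for FAS ligand, stood at 8.93 in the CHEK1 siRNA array, against 7.36, 7.75 and 8.50 as the lowest, median and highest of the other KD2 arrays. Its control siRNA levels were 7.60, 7.39 and 8.56, and its untreated levels 7.25, 7.55 and 8.66, all below the CHEK1 siRNA array. The difference was 1.18, or 2.26-fold, and 4 of its 5 probe sets lay above the range. TNFRSF10B, the TRAIL receptor DR5, was at 10.06 in the CHEK1 siRNA array, against a range of 9.18 to 10.01 in the other KD2 arrays, but at 10.73 in the third control siRNA array.

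Among the targets of mitochondrial and other apoptosis, 9 of 10 were higher and 6 lay above the range. BAX, which opens the outer mitochondrial membrane, stood at 8.61 in the CHEK1 siRNA array, against 6.78, 7.53 and 8.49 as the lowest, median and highest of the other KD2 arrays. It is the highest of the 23 arrays by a small margin over that of ABL1 siRNA, and the second BAX probe set (0.75) lay within the range. TP53I3, an oxidoreductase known as PIG3, was at 10.41 in the CHEK1 siRNA array, against 9.36, 9.67 and 9.83 as the lowest, median and highest of the other KD2 arrays. The groups did not overlap, since the control siRNA arrays stood at 9.74, 9.75 and 8.99, and limma gave 0.76 with an SE of 0.13 and an adjusted p of 0.0098.

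DRAM1, a lysosomal protein that links p53 to autophagy, was higher by 0.65. CYFIP2, PHLDA3 (an inhibitor of AKT) and PERP (a desmosome protein) also lay above the range, at 0.65, 0.35 and 0.31. Of these, CYFIP2 and PHLDA3 were below noise. The BH3-only gene PMAIP1 (NOXA) was at 0.07, the 10th highest of the 23 arrays, and the apoptosome gene APAF1 at 0.10 (below noise). AEN, a nuclease whose promoter holds a match, was at 0.24 and second highest.

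All 5 measured targets listed under DNA repair and nucleotide supply, which include the F-box gene FBXO22, were higher, and 4 lay above the range. DDB2, which recognises ultraviolet lesions, stood at 9.49 in the CHEK1 siRNA array, against 8.63, 8.83 and 9.46 as the lowest, median and highest of the other KD2 arrays, a difference of 0.66. The array of CCNA2 siRNA was nearly as high, and untreated array 1 stood above both at 9.61. RRM2B, the ribonucleotide reductase subunit that p53 induces, was at 0.64 (below noise) and XPC, a sensor of helix distortion, at 0.30. FBXO22 was at 0.21, and at 0.083 with the median over its probe sets.

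All 9 measured targets of metabolism and redox control were higher, 4 of them above the range. SESN1 and SESN2, sestrins that restrain mTORC1, were at 0.89 and 0.66, both below noise. TIGAR, which lowers glycolytic flux, was at 10.06 in the CHEK1 siRNA array, against a range of 9.33 to 9.93 in the other KD2 arrays, and RETSAT was at 0.41.

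Of the 11 secreted, receptor and other targets, 10 were higher and 4 lay above the range. GDF15, a secreted stress cytokine, showed the largest difference of all 19775 genes. It stood at 9.04 in the CHEK1 siRNA array, against 5.68, 6.37 and 8.68 as the lowest, median and highest of the other KD2 arrays, a difference of 2.66 or 6.34-fold. In the control siRNA arrays it was at 6.40, 6.27 and 12.53 and in the untreated arrays at 6.64, 6.15 and 12.48. The CHEK1 siRNA array was therefore above 2 of 3 control siRNA arrays and far below the third. Its other 2 probe sets, both dim, were at 0.60 and 0.19. TRIM22 (0.79), PLXNB2 (0.37) and TM7SF3 (0.34) were the other genes above the range, and TGFA, IER5 and EPHA2 stayed within it. TRIM22, at 4.45 in the CHEK1 siRNA array, and PLXNB2 were below noise.

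Control siRNA array 3 and untreated array 3 are near copies of each other, with 95.4% or 100% of probe sets within 10%, depending on which is the divisor, and may be 1 library. Of the 27 p53 targets above the KD2 range, 7 were higher in both of these arrays than in the CHEK1 siRNA array, namely GDF15, GADD45A, SESN2, PHLDA3, DRAM1, FBXO22 and TNFRSF10B. DRAM1 stood at 8.64 in the CHEK1 siRNA array, against 8.86 and 8.95 in control siRNA array 3 and untreated array 3. PHLDA3 stood at 8.22, against 9.50 and 9.44 in those arrays, and FBXO22 at 9.99, against 10.52 and 10.63. The called gene H2AC6 was higher there too, at 8.71 and 8.62. All 7 arrays of batch KD3 were also high in these genes, with GDF15 between 12.20 and 12.95, GADD45A between 11.57 and 11.97 and SESN2 between 9.76 and 10.35. Other targets above the KD2 range were exceeded elsewhere. Untreated array 1 was higher than the CHEK1 siRNA array in PLXNB2 (8.72 against 8.46), CYFIP2 (8.40 against 7.87) and TM7SF3 (10.65 against 10.49). Control siRNA array 1 was higher in PLXNB2 (8.58) and PLK2 (9.96 against 9.93). Arrays of batch KD1 reached 13.05 in RPS27L (12.90 in the CHEK1 siRNA array) and 11.26 in PERP (11.14). The ETS1 siRNA array of batch KD3 was higher in RETSAT (8.91 against 8.82). Above all other 44 arrays lay 22.6% of the 53 targets, and the share of all genes above those 44 was not counted. Since no source gives the control arrays a batch, the part of batch in the values against the control siRNA mean was not tested. With the mean of the 3 control siRNA arrays in place of the KD2 median, the p53 list had a median of 0.39, with GDF15 at 0.64 and SESN2 at -0.34. Without control replicate 3 it had a median of 0.33, with GDF15 at 2.70 and SESN2 at 0.54.

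Outside the list, ACTA2, smooth muscle actin, stood at 9.04 in the CHEK1 siRNA array, against 7.16, 7.44 and 8.08 as the lowest, median and highest of the other KD2 arrays. Its levels were 7.53, 7.18 and 7.24 in the control siRNA arrays and 8.41, 7.13 and 7.34 in the untreated arrays. The difference of 1.60 (3.04-fold) passed limma with an adjusted p of 0.0011, and the other 2 probe sets, both below noise, were at 0.01 and 0.17. PURPL, whose transcript is a dim 4.76 in the CHEK1 siRNA array, had a KD2 median of 3.45 and a highest value of 3.94, with a limma adjusted p of 0.0083. The remaining genes among the 12 highest above noise and above the range were CD55, a complement inhibitor (0.69), and CREM, a cAMP-responsive transcription factor (0.65).

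The genes that regulate p53 lay close to the KD2 median. The median of the 17 measured was -0.05, with 1 above the range, 1 below it and none called, against 2.37% and 2.42% of all genes above and below. RCHY1, a ubiquitin ligase for p53 also known as PIRH2, was above the range at 0.14. ATR was below it at -0.29, and at 9.07 in the CHEK1 siRNA array, against 8.95, 9.34 and 8.74 in the control siRNA arrays, which it did not stand apart from. MDM4, the partner of MDM2, was at -0.12. TP53BP1, the break-binding protein 53BP1, was at -0.08, COP1 and USP7 at -0.05 each and ATM at -0.04. HIPK2, CREBBP and TP53BP2 were at 0.02, 0.03 and 0.03.

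Genes of the pathway that CHK1 serves were mostly lower. In the list of the ATR-CHK1 pathway, which leaves out CHEK1 itself, 24 of 26 measured genes (92.3%) were lower, against 51.3% of all genes, and the median was -0.21. Other siRNAs gave similar counts, with 23 of 26 lower after MAP2K1 siRNA (median -0.30) and 22 of 26 after CCND3 siRNA (-0.17). After CCNA2 siRNA 24 of 26 were higher (0.21). In the CHEK1 siRNA array, the following held against the range of the other KD2 arrays. Below the range lay 3 of the 26 (11.5%), against 2.42% of all genes. They were ATR (-0.29), RPA1 (a subunit of the single-strand binding complex, -0.21) and CDC25B (a phosphatase that activates CDK1, -0.31). CDC25B was only just below the range, at 9.529 against 9.531 in the array of HDAC2 siRNA. CCNE2, CCNA2 and CDC25A were at -0.51, -0.35 and -0.32 but within it. CCNE2 is also on the list of DNA replication and G1/S. The CCNA2 transcript was lowest of the 22 in the array of its own siRNA.

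Lists of the cell cycle were lower too, in small steps per gene, and in RNA from a whole culture fewer cycling cells and less RNA per cell cannot be told apart. In the list of DNA replication and G1/S, 47 of 49 genes were lower, against 51.3% of all genes, with a median of -0.30. In that of G2/M and mitosis it was 45 of 46 with a median of -0.28, and in that of homologous recombination 19 of 20 with a median of -0.27. None of these genes was called, and 3 (6.12%), 3 (6.52%) and 0 lay below the range, against 2.42% of all genes. Among replication genes above noise, RRM2, the ribonucleotide reductase subunit of S phase, was at -0.51, GINS2, a part of the replicative helicase, at -0.48, and DTL, an adaptor that degrades CDT1, at -0.47. With genes below noise included, the DNA polymerase genes POLA1 (-0.35), POLD3 (-0.43) and POLE (-0.41) lay below the range, and POLD3 was below noise. Among mitotic genes, CENPF, a kinetochore protein, stood at 9.98 in the CHEK1 siRNA array, against 10.07, 10.46 and 10.82 as the lowest, median and highest of the other KD2 arrays. ASPM, a spindle pole protein, was at -0.42 and SMC4, a condensin subunit, at -0.35, both below the range. In homologous recombination FANCI was at -0.40, RAD51AP1 at -0.39, EXO1 at -0.30 and H2AX at -0.30, all within it.

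Lower medians of these lists were also seen after other siRNAs. The median of the replication list was lower after MAP2K1 siRNA (-0.49), and that of the mitosis list after siRNA against MAP2K1, CCND3 and HDAC3 (-0.50, -0.32 and -0.29). In those arrays the p53 list stood at 0.01, -0.04 and -0.08. Counts as one-sided were also seen, with 47 of 49 replication genes lower after CCND3 siRNA and after STAT6 siRNA. Of the mitosis genes, 46 of 46 were lower after CCND3 siRNA and 45 of 46 after STAT6 siRNA. Other arrays went the other way, with 48 of 49 replication genes higher after CCNB1 siRNA and 46 of 46 mitosis genes higher after PIK3CB siRNA. With the control siRNA arrays' mean as the comparison, the replication list was at -0.09, and at 0.00 without control replicate 1, while the mitosis list was at -0.34.

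Mitotic promoters are shown because they carry the CHR element, which DREAM binds. The letters TTTGAA were searched on both strands and are found in 15.2% of all 35116 promoter windows. Counted by gene, they are in 30 of 39 genes of G2/M and mitosis (76.9%), 3 of 43 of DNA replication and G1/S (6.98%), 2 of 17 of homologous recombination (11.8%) and 5 of 43 p53 targets (11.6%), against 18.2% of all genes. The element is printed in capitals for the 4 lowest mitotic genes above noise that hold it before the start.
NCAPG, 4:17810932-17810961, plus strand: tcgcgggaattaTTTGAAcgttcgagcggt
ASPM, 1:197146765-197146794, minus strand: cggatgcaatcaTTCAAAtgaagcgccgcc
ANLN, 7:36389830-36389859, plus strand: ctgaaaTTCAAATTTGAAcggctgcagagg
KIF4A, X:70290058-70290087, plus strand: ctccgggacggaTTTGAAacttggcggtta
ANLN holds it on either strand, end to end. These genes were at -0.44, -0.42, -0.41 and -0.37. NCAPG encodes a condensin subunit, ANLN the cytokinesis scaffold anillin and KIF4A a chromosome kinesin. The replication list had a similar median with few such matches. Apart from the p53 site, no other promoter element was searched, and the part of DREAM in either list was not tested.

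**Figure D3:**
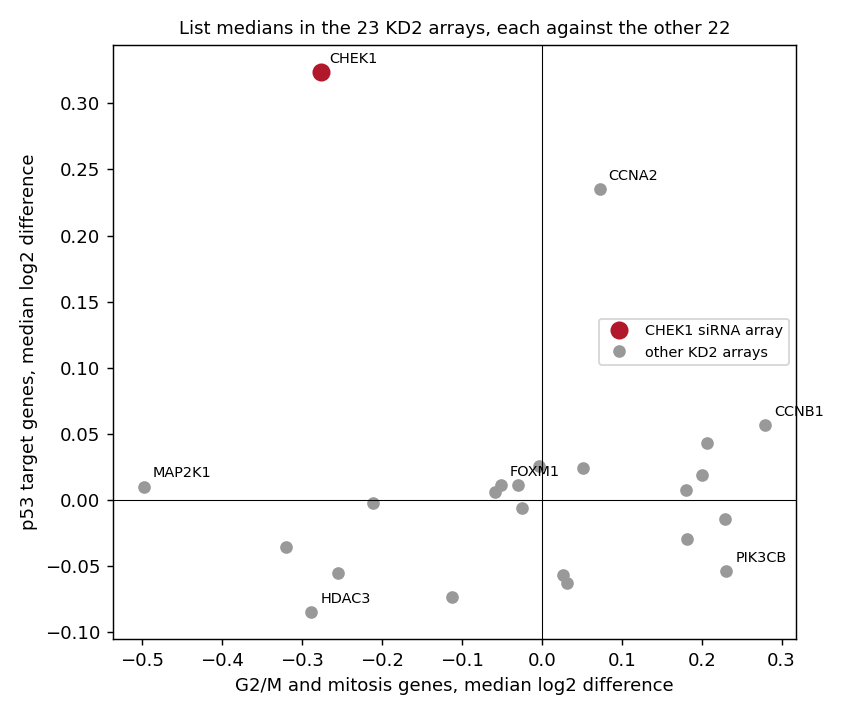
Median log2 difference of the p53 targets (vertical axis) against that of the G2/M and mitosis genes (horizontal axis) in the 23 KD2 arrays, each array set against the median of the other 22. CHEK1 siRNA is the only array with a p53 median above 0.3, and its mitosis median of -0.28 is the 4th lowest.

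The array of CCNA2 siRNA was the one most like it in p53 targets. CCNA2 encodes cyclin A2, the partner of CDK2 in S phase. Its p53 list median was 0.23, with 44 of 53 targets higher, against 8856 of all 19775 genes in that array. The remaining 21 arrays had p53 list medians from -0.08 to 0.06. For 15 of the 53 targets the CHEK1 and CCNA2 siRNA arrays were the highest 2 of 23, and 41 were higher in the CHEK1 than in the CCNA2 siRNA array. The same counts were not made over all genes. The KD2 median used for both arrays shares 21 arrays. CDKN1A differed from the KD2 median by 2.08 in the CHEK1 siRNA array and 1.01 in the CCNA2 siRNA array. GDF15 differed by 2.66 and 2.30, MDM2 by 0.78 and 0.62 and DDB2 by 0.66 and 0.63 in these arrays. TP53I3 was at 0.74 in the CHEK1 siRNA array and 0.08 in the CCNA2 siRNA array, and BAX at 1.08 and 0.38. PPM1D (0.32 and 0.56), IER5 (0.33 and 0.60) and PMAIP1 (0.07 and 0.34) were lower in the CHEK1 than in the CCNA2 siRNA array. With 1 array for each siRNA, no test of these differences was possible. Cell cycle lists parted the arrays, with the replication list at -0.30 in the CHEK1 siRNA array and 0.24 in the CCNA2 siRNA array, and the mitosis list at -0.28 and 0.07.

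The medians of other stress programmes lay within those of the other 22 arrays. Genes of the BCL2 family and caspases had a median of 0.00 over 21 genes, with none outside the range, and MCL1, a survival protein, was at 0.18. The ATF4 and CHOP stress response had a median of 0.04 over 16 genes, with SESN2, also a p53 target, as the only one above the range and the cystine transporter gene SLC7A11 at -0.48. Set against the control siRNA mean, that list was at -0.81, and without control replicate 3 at -0.055. Inflammatory cytokines and NF-kappaB targets had a median of 0.03 over 15 genes, with CXCL8 at 0.87 as the second highest of 23 arrays and within a range that reaches 12.94 after PIK3CB siRNA. Interferon-stimulated genes had a median of -0.11, with 4 of 23 (17.4%, against 2.42% of all genes) below the range, ISG15, MX1, IRF1 and IRF7, but 22 of the 23 were below noise. Immediate early and ERK output genes had a median of 0.01 over 20 genes, with EGR1, an early growth response factor, at 0.41 and FOSL1 at -0.17.

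Pigment and melanocyte lineage genes had a median of 0.06 over 16 genes, with MITF, the lineage's main transcription factor, at 0.21 and within the range. Their mean level was 6.87 in the CHEK1 siRNA array, within 6.67 to 6.93 in the other KD2 arrays. SOX10, a neural crest factor, stood at 10.91 and S100B at 10.01 in the CHEK1 siRNA array, both above noise, while the pigment genes PMEL (5.28), MLANA (4.06) and TYR (5.63) were below noise there as in the KD2 median. Of 22 measured markers of keratinocytes, leukocytes, endothelium and fibroblasts, KRT10 alone was above noise, and its level of 11.22 equalled the KD2 median.

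**Figure D4:**
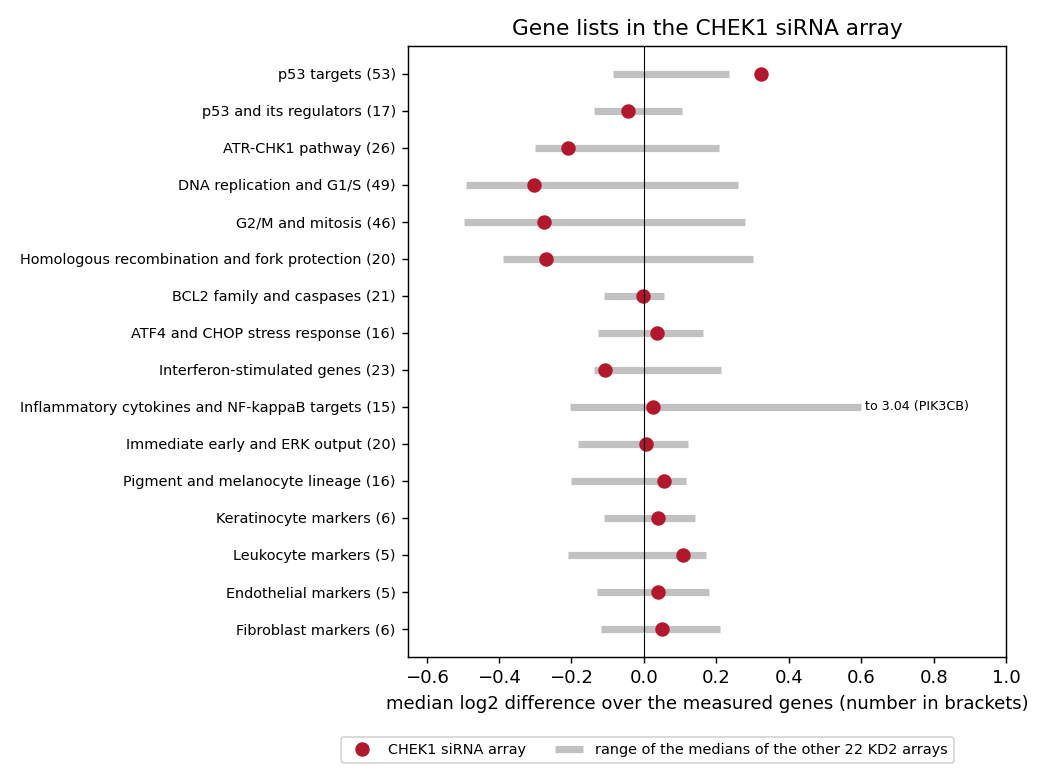
Median log2 difference of each gene list in the CHEK1 siRNA array (red points, horizontal axis) with the range of the medians of the other 22 KD2 arrays (grey bars), and the number of measured genes in brackets. The p53 targets are the only list beyond its bar, and the bar of the inflammatory genes is cut at 0.6 and reaches 3.04.

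The 12 lowest genes above noise and below the range began with CHEK1, followed by CDK6, the G1 kinase that pairs with D-type cyclins. CDK6 stood at 9.82 in the CHEK1 siRNA array, against 10.16, 10.52 and 10.81 as the lowest, median and highest of the other KD2 arrays, a difference of -0.70. It stood at 9.99, 10.24 and 9.64 in the control siRNA arrays, which overlap the CHEK1 siRNA array, and its limma adjusted p was 1.0. HSDL2, a peroxisomal enzyme, followed at -0.58 and CTDSPL2, a phosphatase, at -0.51. CENPF, CCSAP, NKIRAS1, STAG2 (a cohesin subunit), ASPM, HEY1 (a Notch target), RPUSD3 and UBE2Q2 were between -0.48 and -0.41.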

How the data were processed

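The authors normalised the arrays with RMA (version not given in the sources used here) and deposited intensities on the linear scale. Log2 was taken with no further normalisation. Batches follow the study's own assignment. Of 54675 probe sets, 41097 had 1 gene name, 1801 several and 11777 none, which gave 19775 genes, each read by whichever of its probe sets was brightest on average over all arrays. Arrays have no read depth, and their number limits the precision. Array medians lay between 5.06 and 5.15.

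The members and lists were chosen with earlier results of these data known. Named were CHEK1, p53 regulators above noise, called p53 targets, the 12 highest and 12 lowest genes above noise and outside the range, and up to 4 members per other list with the largest difference; further members were named to describe roles after their values were seen. limma 3.58.1 (R 4.3.3) with Benjamini-Hochberg adjustment covered all named probe sets and was tested on simulated data. All else used Python 3.11.15, numpy 2.4.6, pandas 2.3.3 and scipy 1.17.1. Alternatives varied the comparison arrays, centring, probe set, noise filter and fold. The siRNA sequences are not used here.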

Additional observations from a re-analysis of the deposited data

How the results depend on the processing

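The p53 list stayed above 0 under every alternative tried, with a median of 0.41 over the members above noise and 0.39 against the control siRNA mean (0.33 to 0.43 without each control replicate). Of its members 22.6% lay above the range of all other 44 arrays, against 50.9% for the KD2 arrays. The share of all genes above the other 44 arrays was not counted. The p53 targets called numbered 3 against the control mean, 2 with the median over a gene's probe sets and 16 at 1.5-fold. CHEK1 was at -0.99 against the control mean, where the smallest exact rank p is 0.25, and between -1.10 and -0.91 without each control replicate. Over all genes, the calls higher and lower numbered 28 and 22 against the control mean (19 to 122 and 18 to 99 without each replicate), 5 and 1 with the median over probe sets, 5 and 1 above noise, and 27 and 10 at 1.5-fold, against 9 and 2. limma called 4 probe sets higher among those above noise, and centring or leaving out the FOXM1 and PIK3CB siRNA arrays changed no direction.

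Against the control siRNA arrays the replication list was at -0.088, and between -0.26 and 0.00041 without each replicate (0.00041 without replicate 1 and -0.068 without replicate 2). The ATR-CHK1 list was then between -0.18 and -0.081 and the homologous recombination list between -0.30 and -0.10. Of 114 genes with a reported difference, 19 had the opposite sign against the control mean and 38 without at least 1 control replicate, 9 and 15 of them among the 53 p53 targets. For genes outside the KD2 range, the values without each control replicate that crossed 0 were GDF15 -0.43 to 2.70, GADD45A -0.34 to 0.85, SESN2 -0.90 to 0.54, PHLDA3 -0.72 to 0.14, TNFRSF10B -0.086 to 0.61, FBXO22 -0.16 to 0.30, RCHY1 -0.0068 to 0.38, ATR -0.070 to 0.23, CDK6 -0.29 to 0.0088 and CCSAP -0.31 to 0.039. Genes within the KD2 range also crossed 0, with CCNE2 at -0.38 to 0.42, DTL at -0.24 to 0.15, GINS2 at -0.42 to 0.041, ANLN at -0.30 to 0.090, H2AX at -0.83 to 0.049, SFN at -0.36 to 0.31, PMAIP1 at -1.18 to 0.27 and EGR1 at -0.64 to 0.76. Against the mean of all 3, SESN2 was at -0.34, PHLDA3 at -0.33, ATR at 0.066, CCNE2 at 0.15, PMAIP1 at -0.68, SFN at -0.13, CCND1 at -0.45, NINJ1 at -0.29 and SLC3A2 at -1.07. The ATF4 and CHOP list was at -0.81, and between -1.11 and -0.055 without each replicate. RPUSD3 was at 0.17 with the median over its probe sets and 0.23 with the most variable one, and PERP at -0.054 with either. The interferon list was at 0.031 over members above noise. The cause of these changes was not tested. No paired analysis was possible because the CHEK1 siRNA array has no replicate.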
